A study of Mus musculus with 703 samples.

Results

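The nuclear genome encodes the subunits of mitochondrial complex II and most subunits of complexes III, IV and V, and 44 such genes were followed here in mouse gastrocnemius muscle. They were the genes of the count table whose symbols begin with Uqcr, Cox4 to Cox8 or Atp5 or name one of the 4 Sdh subunits. The patterns matched 47 symbols and the rule left out 3 of them, so that 44 of 19088 genes in the table remained: 4 of complex II, 8 of complex III, 16 of complex IV and 16 of complex V. Of those counted under complex V by symbol, Atp5s and Atp5sl carry the RefSeq names Dmac2l and Dmac2 and are not structural subunits of the enzyme. RNA was sequenced in 350 libraries on one diet and 353 on the other, from 20 CC-RIX strains, each the F1 of a cross between 2 Collaborative Cross recombinant inbred strains and labelled Outbred, with 22 to 38 libraries per strain. Both sexes received, from 6 weeks of age, a diet labelled 10% fat + fiber (350 animals) or 44% fat + fiber (353 animals), the latter being the high-fat, high-sugar diet. Of the animals on 10% fat, 119 females and 115 males were untreated and 116 were given metformin (57 females, 59 males). Of those on 44% fat, 235 were untreated (117 females, 118 males) and 118 were given metformin (59 females, 59 males). Metformin, a drug for type 2 diabetes, was given at 5 mg/mL in the drinking water from 7 months of age to animals of a 12-month cohort, and the study also had a 6-month cohort. The labels of single samples give no age, so metformin and older age cannot be told apart in any comparison of treated with untreated animals. Each library is a single animal, and the tissue was whole muscle, so that fewer cells of a type and less RNA per cell cannot be told apart.

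The respiratory chain passes electrons to oxygen and uses the energy released to pump protons, which ATP synthase then uses to make ATP. Complex II, succinate dehydrogenase, feeds electrons from the citric acid cycle into the ubiquinone pool, complex III hands them to cytochrome c, complex IV (cytochrome c oxidase) passes them to oxygen, and complex V is the ATP synthase. Complex IV has paired isoforms of several small subunits: Cox6a2, Cox7a1 and Cox8b are the forms of heart and skeletal muscle, and Cox6a1, Cox7a2 and Cox8a are the widely expressed forms. Nuclear respiratory factor 1 (NRF1), ETS factors and estrogen-related receptors are known regulators of many of these genes.

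Library totals ran from 27.4 M to 96.1 M counts (M, mega) with a median of 47.9 M, the 44 genes held 0.578% to 1.79% of the counts (median 0.963%), and mitochondrially encoded genes held 5.65% to 16.55%. The 9 skeletal muscle markers had medians of 3345 CPM (Tnni2, counts scaled to the library total) to 59510 CPM (Myh4). Libraries came from a lower range of sequencing identifiers (400 untreated and 144 treated animals) and an upper range (69 and 90). The range entered every model fitted over all strains and both ranges as a term, unless stated. Differences within single strains, and the counts of strains with a positive or negative difference, were not adjusted for it. The part of the range in those counts was not tested. In 15 libraries the sex read from the transcripts was not the labelled sex and in 4 the profile was closest to another strain, 19 libraries in all. In 35 libraries the summed liver or adipocyte markers lay far above the rest. The counts of members called for diet in untreated animals, for metformin and for sex are given with and without these libraries below. Strain levels, strain shares and within-strain differences were taken with these libraries kept.

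The promoters of 6 members described below are shown. Sdha and Cox6a1 were called in tests of response by strain, Uqcrc1 and Cox5b had the lowest adjusted p of complexes III and IV in the diet comparison, and Cox7a1 and Cox8b are muscle isoforms. Atp5a1 was also called in a test of response by strain, but it had no promoter entry and is not shown. Each run is the 250 bases before the RefSeq transcription start in GRCm38.p6, 5′ to 3′ on the gene's strand, for Sdha at chr13:74350241-74350490 (minus), Cox6a1 at chr5:115348959-115349208 (minus), Uqcrc1 at chr9:108936398-108936647 (plus), Cox5b at chr1:36691237-36691486 (plus), Cox7a1 at chr7:30183921-30184170 (plus) and Cox8b at chr7:140900447-140900696 (minus). Capitals mark matches on either strand to the NRF1 letters GCGCANGCG, the ETS letters CCGGAAG, the ERR letters AAGGTCA or the YY1 letters AAGATGGCG, where N is any base and matches to NRF1 can overlap.
Sdha: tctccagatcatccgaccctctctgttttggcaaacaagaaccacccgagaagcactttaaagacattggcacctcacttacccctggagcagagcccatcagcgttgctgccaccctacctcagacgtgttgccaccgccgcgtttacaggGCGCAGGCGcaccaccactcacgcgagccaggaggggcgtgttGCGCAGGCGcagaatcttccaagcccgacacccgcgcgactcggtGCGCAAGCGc
Cox6a1: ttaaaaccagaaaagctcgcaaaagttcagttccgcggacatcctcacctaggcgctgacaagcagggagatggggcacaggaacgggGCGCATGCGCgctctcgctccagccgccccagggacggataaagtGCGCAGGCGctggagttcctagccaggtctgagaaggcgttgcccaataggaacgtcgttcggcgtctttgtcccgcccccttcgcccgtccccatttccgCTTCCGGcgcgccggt
Uqcrc1: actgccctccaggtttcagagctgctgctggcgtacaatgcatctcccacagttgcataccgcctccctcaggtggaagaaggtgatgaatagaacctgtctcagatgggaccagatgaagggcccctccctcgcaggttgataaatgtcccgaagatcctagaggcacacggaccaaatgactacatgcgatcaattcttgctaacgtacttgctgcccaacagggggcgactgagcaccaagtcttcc
Cox5b: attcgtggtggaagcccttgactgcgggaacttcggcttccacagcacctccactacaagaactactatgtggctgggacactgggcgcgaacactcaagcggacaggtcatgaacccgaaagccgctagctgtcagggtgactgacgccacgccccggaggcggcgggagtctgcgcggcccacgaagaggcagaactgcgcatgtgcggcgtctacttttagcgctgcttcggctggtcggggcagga
Cox7a1: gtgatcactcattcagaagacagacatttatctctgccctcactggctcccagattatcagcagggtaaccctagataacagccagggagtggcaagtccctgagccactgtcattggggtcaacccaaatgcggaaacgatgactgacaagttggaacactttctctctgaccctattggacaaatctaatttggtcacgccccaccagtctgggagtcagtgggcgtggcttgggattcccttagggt
Cox8b: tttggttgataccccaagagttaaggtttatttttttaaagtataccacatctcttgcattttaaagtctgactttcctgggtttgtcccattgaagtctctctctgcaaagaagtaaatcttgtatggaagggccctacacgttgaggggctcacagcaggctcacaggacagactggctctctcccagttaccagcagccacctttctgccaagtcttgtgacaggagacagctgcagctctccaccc
Sdha held 3 matches to NRF1, and Cox6a1 held 3 to NRF1, of which 2 overlap, and 1 to ETS. The other four promoters shown held none of the marked letters. RefSeq promoter entries were matched by gene identifier for 35 of the 44 members and for 11692 genes of the table. NRF1 letters stood in 6 of 35 member promoters (17.1%) and in 10.2% of all 11692, ETS letters in 8 (22.9%) against 12.7%, ERR letters in 2 (5.7%) against 2.9%, and YY1 letters in 0 against 1.0%. The SP1 letters GGGCGG, not put in capitals, stood in 11 (31.4%) against 56.8%, and the median GC content was 54.0% against 59.6%. The 2 members with ERR letters were Atp5g3 and Atp5l. These matches are a description of the letters and were not tested against expression.

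The members differed widely in level. On the scale of CPM, counts scaled to the library total, per kilobase of transcript, medians over all libraries ran from 0.201 for Cox6b2, a testis form of the Cox6b subunit, to 806 for Atp5b, the catalytic beta subunit of ATP synthase. Atp5a1, the alpha subunit, followed at 564 CPM per kb, and among complex II subunits the flavoprotein Sdha (172) and the iron-sulfur subunit Sdhb (159) stood above the membrane anchors Sdhd (97.4) and Sdhc (89.6). In complex III the core subunit Uqcrc1 had a median of 224 CPM per kb and the Rieske protein Uqcrfs1 183. Cox6b2 was at 0 in 113 libraries, and it passed the filter on low counts where treated and untreated libraries were fitted together and in the untreated libraries of the upper identifier range. The other 43 members had counts in every library and were tested in every comparison.

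The muscle isoforms of complex IV outweighed their partners, to unequal degrees. Cox6a2 had a median of 347 CPM per kb and Cox6a1 12.75, so that Cox6a1 made up a median of 3.52% of the pair (1.51% to 18.05% over libraries). Cox8b stood at 231.5 and Cox8a at 20.8 CPM per kb, and Cox8a made up 8.28% of its pair (4.56% to 22.9%). Cox7a1 (133) and Cox7a2 (102) were much closer, with Cox7a2 at 43.3% of the pair (34.0% to 58.7%). Cox4i2, the lung form of the Cox4 subunit, was at 0.726 CPM per kb beside 396 for Cox4i1, and Cox7a2l, a factor that joins complexes III and IV into supercomplexes, was at 59.6. The highest shares of Cox6a1 and Cox8a came from libraries rich in liver or adipocyte markers, whose part in these values was not tested further. Among the 35 such libraries Cox6a1 had a median of 10.9 CPM (5.37 to 46.1) against 7.23 CPM (3.82 to 18.2) in the other 668, and Cox8a 15.4 CPM (10.2 to 44.5) against 11.4 CPM (6.30 to 22.0). Cox7a2 did not share this, with 65.3 CPM in those libraries and 67.1 CPM in the others.

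**Figure D1:**
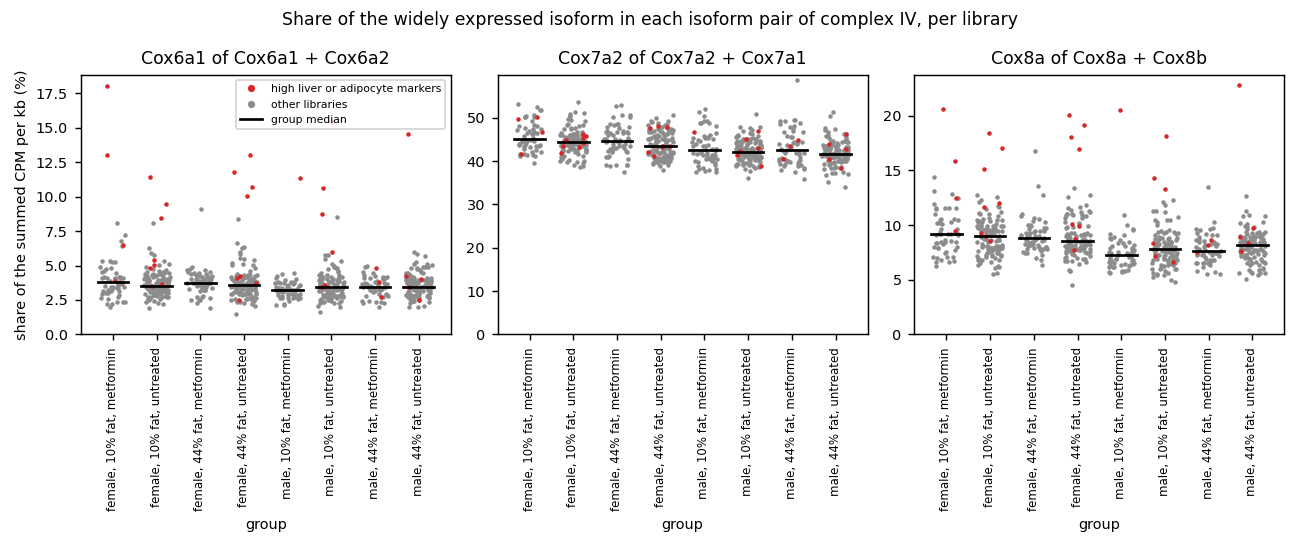
Share of the widely expressed isoform in the summed CPM per kb of each isoform pair (y axis, %), for every library in the 8 groups of sex, diet and treatment (x axis); black bars are group medians and red points the 35 libraries with high liver or adipocyte markers. Cox6a1 and Cox8a stay a small share of their pairs, with the highest points of both in red libraries, while Cox7a2 holds a median of 43.3%.

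To ask whether diet changed the chain, untreated animals on 44% fat (n = 235) were compared with those on 10% fat (119 females and 115 males). Members of every complex were higher on 44% fat, by small amounts. Of 43 tested members, 25 rose and 0 fell (edgeR quasi-likelihood test, Benjamini-Hochberg adjusted p under 0.05, here called), whereas 10.1% of all 16384 genes were called higher. The median log2 fold change of the members was 0.047, a rise of 3.32%, against -0.003 over all genes, and 42 of 43 members had a positive estimate. The rise was called for 4 of 4 members of complex II, 4 of 8 of complex III, 6 of 15 of complex IV and 11 of 16 of complex V, with medians of 0.051, 0.054, 0.038 and 0.049. No test compared the complexes with one another.

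Atp5a1 had the lowest adjusted p in complex V. Its level ran from 1068 through a median of 1426 to 1904 CPM on 10% fat and from 1068 through 1492 to 2113 CPM on 44% fat. The 2 diets overlapped almost entirely, as they did for every member named here, while the median moved up (log2 fold change 0.061 ± 0.010 SE, edgeR adjusted p = 2.995e-07, positive in 19 of 20 strains). Uqcrc1 had a lowest, median and highest level of 253, 369 and 545.5 CPM on 10% fat and 250, 388 and 702.6 CPM on 44% fat (log2 fold change 0.076 ± 0.014, edgeR adjusted p = 2.86e-06, positive in 18 strains). Cox5b, a zinc-binding accessory subunit of complex IV, had 65.6, 127 and 189.5 CPM on 10% fat and 76.3, 132 and 307 CPM on 44% fat (0.076 ± 0.017, edgeR adjusted p = 0.000153, positive in 19 strains). Sdhb had 117, 181.5 and 262 CPM on 10% fat and 129, 189.5 and 363 CPM on 44% fat (0.065 ± 0.014, edgeR adjusted p = 9.72e-05, positive in 18 strains). The other subunits of complex II rose by 0.034 ± 0.009 (Sdha), 0.058 ± 0.013 (Sdhc) and 0.044 ± 0.013 (Sdhd) on the log2 scale.

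Among the paired isoforms of complex IV, 3 were called for diet. Cox4i1 (0.069 ± 0.016), Cox6b1 (0.050 ± 0.016) and Cox7a1 (0.059 ± 0.021, edgeR adjusted p = 0.032) were called higher, and the call for Cox7a1 did not hold with limma voom (adjusted p = 0.0641), on the transformed values (0.0714) or without the 19 libraries against their labels (0.0618). The muscle isoforms Cox6a2 and Cox8b had estimates near 0, -0.010 ± 0.020 and 0.005 ± 0.020, with 10 and 11 of 20 strains positive. Their widely expressed partners Cox6a1 (0.005 ± 0.040) and Cox8a (0.019 ± 0.030) had wider errors. Cox7a2 (0.018 ± 0.016), Cox7a2l (0.031 ± 0.013) and Cox4i2 (0.082 ± 0.051) were positive and not called. Whether the isoforms of a pair differed in response was not tested.

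Markers of adipocytes, fibre types and endothelium moved with diet too. Of 6 adipocyte markers, 5 were called higher and 1 lower on 44% fat, and the group medians of their summed CPM were 222 and 214 in untreated females and 162 and 179 in males on 10% and 44% fat. Of 8 slow fibre markers, 3 were called higher. Myh2, the myosin of fast oxidative fibres, rose in untreated animals (0.136 ± 0.034) and in treated animals (0.190 ± 0.040). Of 4 endothelial markers, Pecam1 (0.064 ± 0.017) and Cdh5 (0.076 ± 0.017) were called higher, and of 9 skeletal muscle markers 2 were called lower, Actn3 (-0.044 ± 0.016) and Mylpf (-0.053 ± 0.017). The part of fibre type and endothelial markers in the members' rise was not tested beyond the slow fibre covariate. Without the 35 marker-rich libraries 23 members were called higher, and with the slow fibre markers as a covariate 25 were. Without the 19 libraries against their labels 21 were. In the lower identifier range alone 25 were called (n = 400), and in the upper range alone 0 were (n = 69), where the median log2 fold change was 0.042 and 37 of 44 members were positive.

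**Figure D2:**
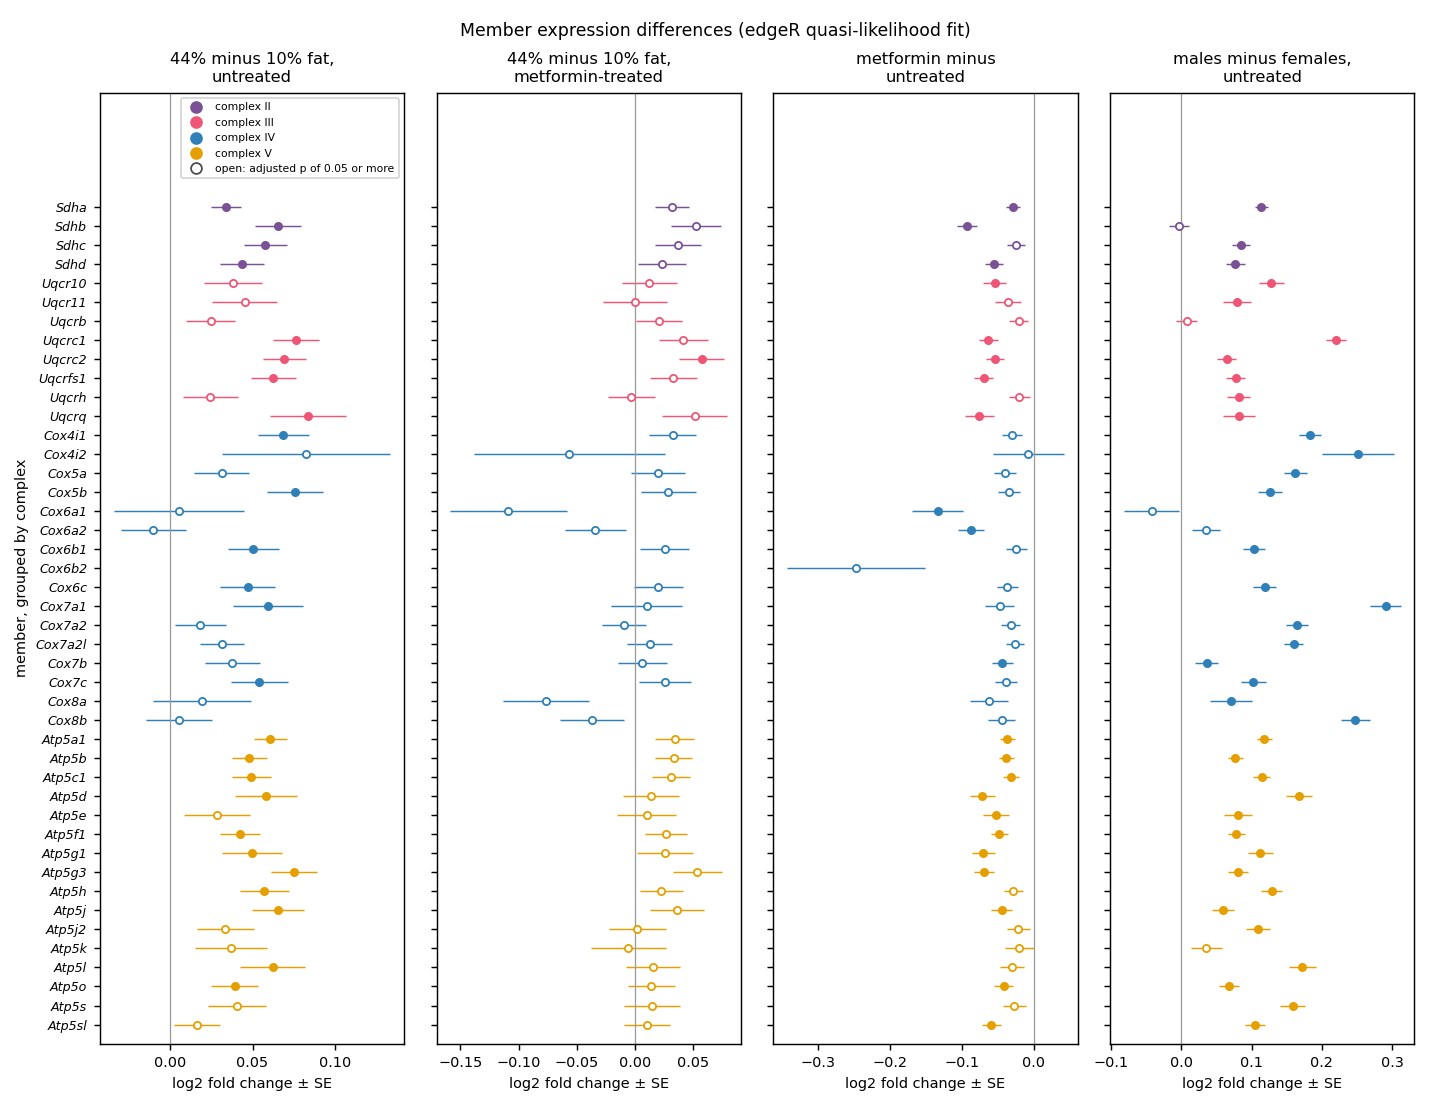
Log2 fold change ± SE (x axis) of each member (y axis, grouped by complex) for 44% minus 10% fat in untreated and in treated animals, for metformin minus untreated, and for males minus females; filled points have an adjusted p under 0.05 and open points do not. Filled points lie right of 0 for diet and sex and left of 0 for metformin, and Uqcrc2 is the single filled point for diet in treated animals.

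Diet was compared again within metformin-treated animals (n = 118 and 116), none of which enter the untreated fit. Only Uqcrc2, a core subunit of complex III, was called, while 5.27% of all genes were called higher. Uqcrc2 had a lowest, median and highest level of 165, 266 and 331 CPM on 10% fat and 152, 276 and 346 CPM on 44% fat (log2 fold change 0.057 ± 0.019, edgeR adjusted p = 0.0312, positive in 16 of 20 strains). Of 43 members, 34 were positive and 9 negative, with a median of 0.020. The 4 complex II subunits were all positive (0.023 to 0.052). Cox6a1 (-0.109 ± 0.050), Cox8a (-0.076 ± 0.037), Cox8b (-0.037 ± 0.027) and Cox6a2 (-0.034 ± 0.026) were the lowest of the estimates beside Cox4i2 (-0.056 ± 0.082), and none was called. The test of whether diet acted differently by treatment called no member, at 0.0902% of all genes called, and 0 members had an unadjusted p under 0.05 in it.

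Within the lower identifier range 0 members were called for diet in treated animals (n = 144), with a median of 0.042 and 37 of 43 positive, and within the upper range 0 were called (n = 90), with a median of -0.009 and 18 of 43 positive. The median thus differed in sign between the ranges.

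The count in treated animals also changed with a property of the libraries. Member transcripts are short, with a median length of 736 bases against 2598 for the genes tested. For each library a length slope was computed, the slope, over 17610 genes without the members and the mitochondrially encoded genes, of log2 CPM, relative to the gene's mean, on log2 transcript length. It ran from -0.322 to 0.061, and a lower slope means relatively more counts for short transcripts. In treated females its median was -0.004 on 10% fat and 0.016 on 44% fat, and in treated males 0.007 and 0.011. With the slope as a covariate, an alternative chosen after the data were seen, 28 of 43 members were called higher on 44% fat in treated animals and 0 lower, where 6.29% of all genes were called higher. The median rose to 0.051, with 4 of 4 members of complex II called, 6 of 8 of complex III, 7 of 15 of complex IV and 11 of 16 of complex V. Sdhb then stood at 0.081 ± 0.017, Uqcrc1 at 0.073 ± 0.016, Cox4i1 at 0.066 ± 0.014 and Atp5g3, a copy of the ring-forming c subunit, at 0.083 ± 0.017. The same covariate gave 30 called members in untreated animals, all higher, with a median of 0.044. In treated animals Cox6a2 and Cox8b changed sign with it, to 0.009 and 0.006, and Cox6a1 moved to -0.079, none of them called. What sets the slope of a library was not tested.

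**Figure D3:**
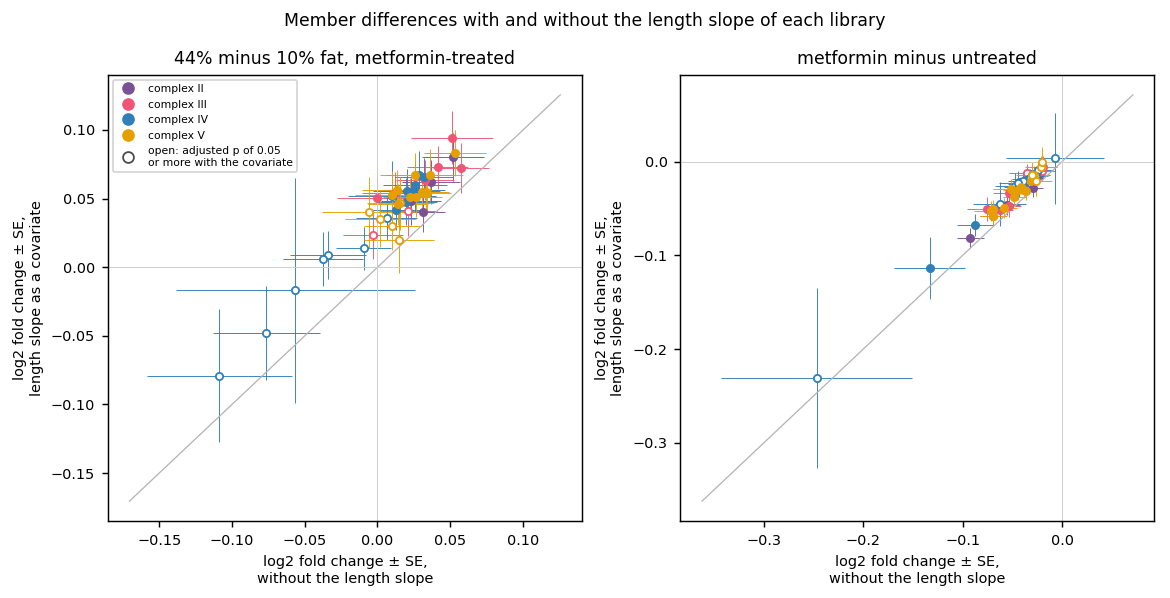
Log2 fold change ± SE of each member without (x axis) and with (y axis) the length slope of the library as a covariate, for diet in treated animals and for metformin against untreated; the grey line marks equal values and filled points have an adjusted p under 0.05 with the covariate. In the left panel the points lie above the line and the median moves from 0.020 to 0.051. In the right panel the points lie closer to the line and the median moves from -0.040 to -0.027.

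Metformin-treated animals (116 on 10% fat and 118 on 44% fat) were compared with all untreated animals (236 females and 233 males), which are also the animals of the diet comparison. The members lay lower in treated animals. Of 44 tested, 22 fell and 0 rose, where 11% of all 17740 genes were called lower, and all 44 estimates were negative (median -0.040, a difference of -2.77%, against -0.002 over all genes). The fall was called for 3 of 4 members of complex II, 5 of 8 of complex III, 3 of 16 of complex IV and 11 of 16 of complex V, with medians of -0.042, -0.054, -0.039 and -0.040. Age moves with treatment in this comparison, as described above.

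Sdhb had the lowest adjusted p of all members. It had a lowest, median and highest level of 117, 186 and 363 CPM in untreated and 88.1, 174 and 246 CPM in treated animals, so the groups overlapped and the treated lay lower at all 3 points (log2 fold change -0.092 ± 0.014, edgeR adjusted p = 5.70e-09, negative in 20 of 20 strains). The other subunits of complex II had smaller estimates, -0.055 ± 0.013 for Sdhd, -0.029 ± 0.009 for Sdha and -0.025 ± 0.013 for Sdhc, which was not called. By adjusted p, Uqcrfs1, the Rieske iron-sulfur protein, came first in complex III with -0.069 ± 0.013 (edgeR adjusted p = 8.70e-06), beside a lowest estimate of -0.075 for Uqcrq. Atp5g3 came first in complex V with -0.069 ± 0.013 (edgeR adjusted p = 1.76e-05).

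In complex IV both Cox6a isoforms fell. Cox6a2 had 147, 243 and 484 CPM (lowest, median, highest) in untreated and 129, 223 and 388 CPM in treated animals (log2 fold change -0.087 ± 0.018, edgeR adjusted p = 7.10e-05, negative in 20 of 20 strains). Cox6a1 had 3.82, 7.55 and 46.1 CPM in untreated and 4.33, 6.86 and 30.8 CPM in treated animals (-0.133 ± 0.036, edgeR adjusted p = 0.00294, negative in 16 strains). The third called member of complex IV was Cox7b (-0.043 ± 0.015). Cox7a1 (-0.047), Cox7a2 (-0.032), Cox8a (-0.063), Cox8b (-0.045), Cox4i1 (-0.030), Cox6b1 (-0.024) and Cox7a2l (-0.026) were negative and not called, and Cox4i2 was at -0.007 ± 0.049. Cox6b2, with a median of 0.0875 CPM, was at -0.247 ± 0.096 (edgeR adjusted p = 0.0529).

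Within the lower identifier range 23 members were called lower, with a median of -0.044. In the upper range (69 untreated, 90 treated) 0 members and 1 gene of all were called, with a median of -0.021 and 41 of 44 negative. Without the identifier term 30 members were called. Without the 35 marker-rich libraries 20 were called, and 19 without the libraries against their labels. With the length slope as a covariate 22 were called and the median was -0.027. Of 6 adipocyte markers, 3 were called lower in treated animals, and of 8 slow fibre markers 0 were. Of 9 skeletal muscle markers, 1 was called lower, Myh1 (-0.080 ± 0.022), and 2 higher, Myh4 (0.059 ± 0.014) and Mylpf (0.051 ± 0.016). Of 4 endothelial markers, 1 was called lower, Pecam1 (-0.065 ± 0.015), and 1 higher, Kdr (0.085 ± 0.025). Their part in the members' fall was not tested beyond these counts.

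The members also differed by strain. The strain test called 38 of 43 members in untreated animals, where 95.4% of all genes were called, so that a call by itself says little about the members. The share of the variance of log2 CPM between strains in untreated animals had a median of 9.03% over the members, against 15.4% over all genes tested and 18.5% over those with a mean above 5 CPM. It was 24.5% for complex II, 6.48% for complex III, 8.59% for complex IV and 10.8% for complex V. The 5 members outside the strain call were Cox4i2, Cox6b1, Uqcr11, Uqcrq and Atp5k, with shares of 0.826% to 2.00%. Sex took a median of 6.06% of the members' variance and diet 0.931%. Over all genes tested these medians were 1.58% and 0.0726%, and over those with a mean above 5 CPM 2.48% and 0.156%.

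The 5 members with the largest strain shares each had their own order of strains. The shares are adjusted for sex, diet and identifier range, whereas the strain means are plain means over untreated animals. Atp5sl (45.6%) ran from a mean of 16.55 ± 1.51 CPM (SD, n = 24) in (CC030/GeniUncJ x CC002/UncJ)F1 to 25.8 ± 2.99 CPM (n = 24) in (CC042/GeniUncJ x CC040/TauUncJ)F1, ranges that did not overlap. For Cox6a2 (41.8%) 3 strains stood above the others, (CC011/UncJ x CC005/TauUncJ)F1 at 330 ± 47.1 CPM (n = 26), (CC011/UncJ x CC027/GeniUncJ)F1 at 322 ± 42.1 CPM (n = 24) and (CC012/GeniUncJ x CC002/UncJ)F1 at 313 ± 38.9 CPM (n = 24). The next strain was at 277 ± 48.3 CPM, with animals that overlapped those of the 3, and a further strain with a CC011/UncJ parent, (CC043/GeniUncJ x CC011/UncJ)F1, was at 243 ± 27.6 CPM. Cox5b (35.5%) was set apart by 1 strain, (CC024/GeniUncJ x CC002/UncJ)F1, with a lowest, median and highest level of 65.6, 88.7 and 165 CPM. The next lowest strain, (CC019/TauUncJ x CC075/UncJ)F1, had 101, 116 and 145 CPM. Cox5b was the only one of the 43 members with its lowest strain mean in that strain.

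Sdha and Sdhb had strain shares of 37.1% each. Sdhb had its 7 lowest strain means (161 to 172 CPM) in 4 strains with a CC019/TauUncJ parent and 3 others. Those 4 strains were (CC019/TauUncJ x CC042/GeniUncJ)F1, (CC051/TauUncJ x CC019/TauUncJ)F1, (CC019/TauUncJ x CC075/UncJ)F1 and (CC004/TauUncJ x CC019/TauUncJ)F1. In the order just given, the Sdha means of these 4 strains were 440, 449, 475.5 and 471 CPM, and 3 other strains had means of 443 to 472 CPM, so for Sdha they did not stand apart as a group. At the top, Sdhb was highest in (CC042/GeniUncJ x CC040/TauUncJ)F1, with a mean of 218.5 ± 29.0 CPM, and Sdha in (CC043/GeniUncJ x CC011/UncJ)F1, with 556 ± 46.0 CPM. These strains were picked out after their values were seen and the pattern of parents was not tested.

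Across members, (CC042/GeniUncJ x CC040/TauUncJ)F1 was the highest of the 20 strains for 22 of 43 members and lay above the mean of the strain means for 40. Its median over members was 0.115 above that mean on the log2 CPM scale, with 0.096 for complex II, 0.142 for complex III, 0.108 for complex IV and 0.106 for complex V. At the other end, (CC019/TauUncJ x CC075/UncJ)F1 had a median of -0.072 and (CC030/GeniUncJ x CC002/UncJ)F1 was the lowest strain for 10 members. The median length slope was 0.004 in (CC042/GeniUncJ x CC040/TauUncJ)F1 and 0.026 in (CC019/TauUncJ x CC075/UncJ)F1, the highest of the strains. With the slope as a covariate 42 of 43 members were called for strain, and in the upper identifier range alone 8 were. The shares of all genes called in these settings are not given here, and in the main fit 95.4% were called. These counts by themselves therefore say little about the members.

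**Figure D4:**
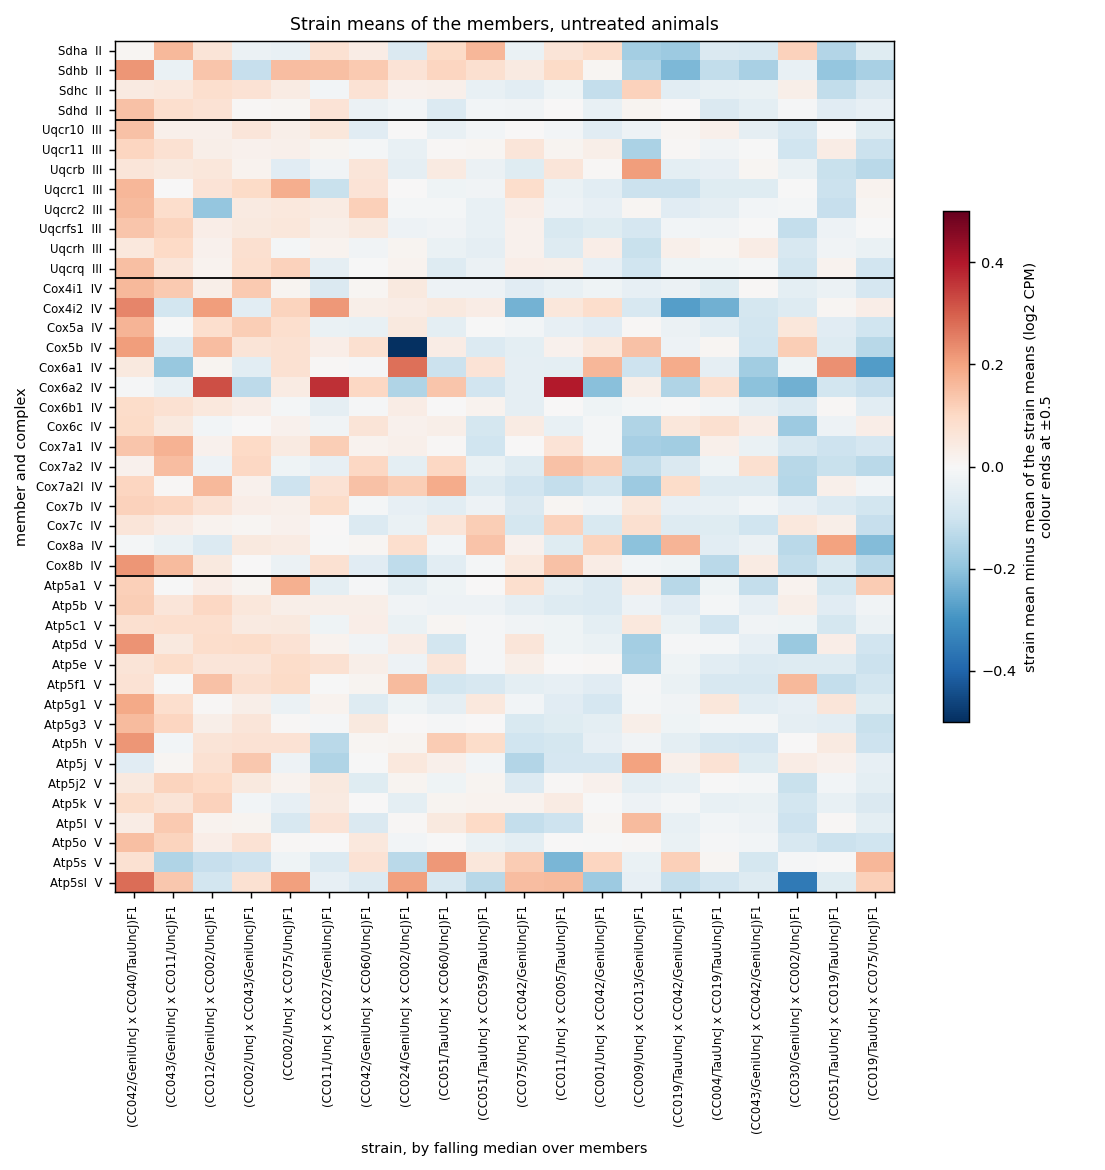
Strain mean minus the mean of the 20 strain means in log2 CPM (colour, red higher, blue lower, ends at ±0.5), for 43 members (rows, with their complex) and the 20 strains (columns, by falling median over members) in untreated animals. The strain means are not adjusted for sex, diet or identifier range. The first column, (CC042/GeniUncJ x CC040/TauUncJ)F1, is red for 40 members, and strong colours include those of Cox5b in (CC024/GeniUncJ x CC002/UncJ)F1, of Atp5sl in (CC030/GeniUncJ x CC002/UncJ)F1 and of Cox6a2 in 3 strains.

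The diet and metformin differences were also taken within each strain, without a term for the identifier range. The median over 43 members of the diet difference in untreated animals was positive in 15 of 20 strains and ran from -0.043 in (CC030/GeniUncJ x CC002/UncJ)F1 to 0.161 in (CC002/UncJ x CC075/UncJ)F1. In (CC002/UncJ x CC075/UncJ)F1, (CC042/GeniUncJ x CC060/UncJ)F1, (CC043/GeniUncJ x CC042/GeniUncJ)F1 and (CC075/UncJ x CC042/GeniUncJ)F1 42 of 43 members were higher on 44% fat, and in (CC051/TauUncJ x CC019/TauUncJ)F1 36 of 43 were lower. In (CC002/UncJ x CC075/UncJ)F1 the highest library for Uqcrq had 279 CPM beside a strain median of 105.5 CPM (n = 24). No untreated animal on 10% fat exceeded 160 CPM, so that library was on 44% fat. The part of such a library in the strain's median was not tested. The metformin median was negative in 16 of 20 strains and ran from -0.184 in (CC042/GeniUncJ x CC040/TauUncJ)F1 to 0.045 in (CC019/TauUncJ x CC042/GeniUncJ)F1. The members of one animal share its library, so these counts are of genes measured in the same animals and not of independent results. A strain's untreated libraries enter both its level in untreated animals and its metformin difference. The high level and the low metformin difference of (CC042/GeniUncJ x CC040/TauUncJ)F1 are therefore not independent.

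**Figure D5:**
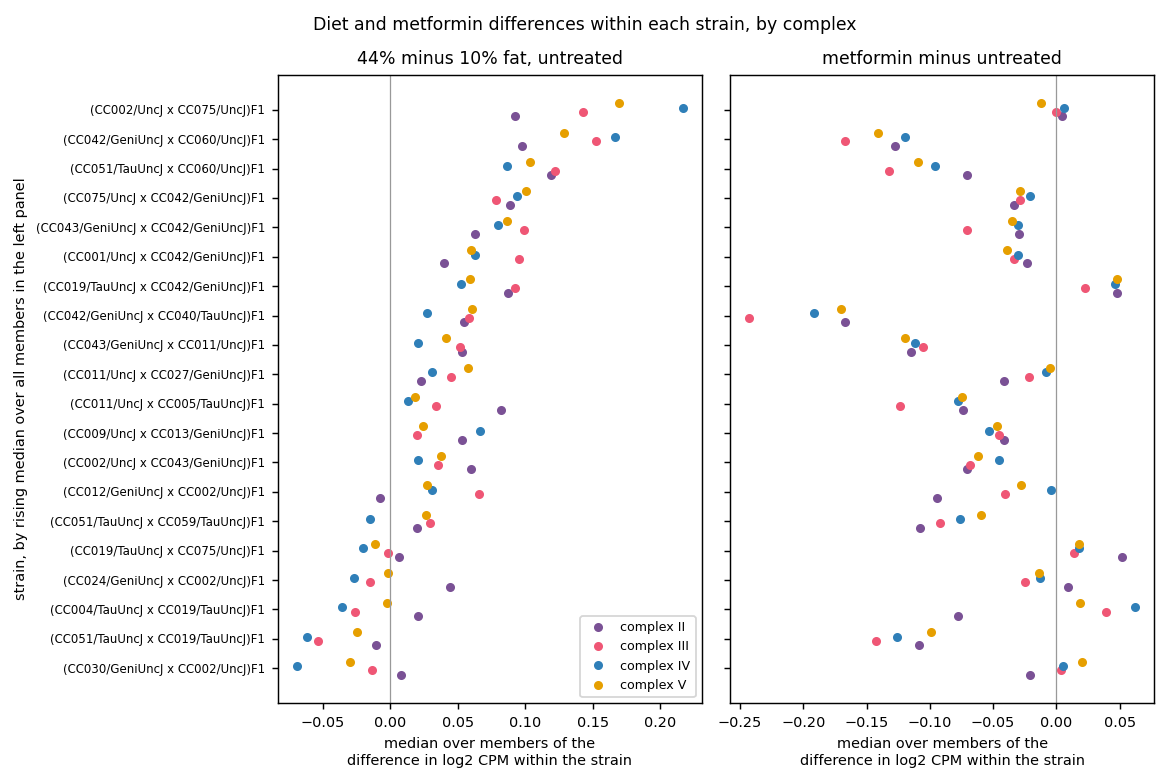
Median over the members of each complex of the within-strain difference in log2 CPM (x axis) for diet in untreated animals and for metformin against untreated, by strain (y axis, in the order of the diet median over all members). Over all members the diet median is positive in 15 strains and the metformin median negative in 16, and (CC042/GeniUncJ x CC040/TauUncJ)F1 has the lowest metformin medians.

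Few members passed the tests of whether a response differed between groups. For diet by strain 1 member of 43 was called, Cox6a1 (edgeR adjusted p = 0.0383), where 4.13% of all genes were called. For metformin by strain Sdha (0.0166) and Atp5a1 (0.036) were called, where 11.6% of all genes were. Neither call held without the marker-rich libraries (adjusted p = 0.0509 and 0.125), and over 9 settings Sdha was called in 7 and Atp5a1 in 4. Diet by sex called 0 members (0.568% of genes) with 5 at an unadjusted p under 0.05. Metformin by sex called 0 (3.12% of genes) with 3 at an unadjusted p under 0.05, namely Sdha, Cox6a1 and Cox8a; limma voom also called 0 in each. Cox6a1 in untreated animals differed by diet from -0.318 in (CC051/TauUncJ x CC059/TauUncJ)F1 to 0.468 in (CC019/TauUncJ x CC042/GeniUncJ)F1 on the log2 CPM scale, and its call did not hold without the 35 marker-rich libraries (adjusted p = 0.227, in a range of 0.0383 to 0.472 over the settings run). For Sdha the metformin difference was lowest, at -0.139, in (CC043/GeniUncJ x CC011/UncJ)F1 and highest, at 0.081, in (CC019/TauUncJ x CC042/GeniUncJ)F1. Atp5a1 ran from -0.153 in (CC042/GeniUncJ x CC040/TauUncJ)F1 to 0.067 in (CC019/TauUncJ x CC042/GeniUncJ)F1.

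Members were higher in males. Of 43 tested in untreated animals (236 females, 233 males), 38 rose in males and 0 fell, where 30.1% of all genes were called higher, and the median log2 fold change was 0.103 against -0.018 over all genes. The call was made for 3 of 4 members of complex II, 7 of 8 of complex III, 13 of 15 of complex IV and 15 of 16 of complex V. Uqcrc1 had a lowest, median and highest level of 250, 352.5 and 491 CPM in females and 286, 402.5 and 702.6 CPM in males (0.220 ± 0.014, edgeR adjusted p = 3.15e-43, positive in 20 of 20 strains). Cox7a1 had 32.0, 54.0 and 82.7 CPM in females and 38.8, 65.7 and 193 CPM in males (0.290 ± 0.021, edgeR adjusted p = 3.61e-34, positive in 20 strains). By adjusted p, Sdha (0.114 ± 0.009, edgeR adjusted p = 1.77e-28) came first in complex II and Atp5a1 (0.118 ± 0.010, edgeR adjusted p = 6.45e-26) in complex V.

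The isoforms of complex IV differed in their estimates for sex. Cox8b (0.248 ± 0.020), Cox7a1 and Cox4i2 (0.251 ± 0.051) had the highest estimates, Cox4i1 (0.183 ± 0.016), Cox7a2 (0.165 ± 0.016), Cox7a2l (0.159 ± 0.013) and Cox6b1 (0.103 ± 0.016) were called too, and Cox8a (0.071 ± 0.030) was called at an edgeR adjusted p of 0.0276. Cox6a2 (0.036 ± 0.020) and Cox6a1 (-0.043 ± 0.040) were not called. Sdhb was level between the sexes (-0.003 ± 0.014), with a median of 185 CPM in females and 186 in males. Sdhc (0.085 ± 0.013) and Sdhd (0.077 ± 0.013) rose. Of 9 skeletal muscle markers, 7 were called higher and 1 lower in males, with a median log2 fold change of 0.099. Myh2 was called lower (-0.246), and of 6 adipocyte markers 5 were called lower and 1 higher. Of 4 endothelial markers, 2 were called higher and 1 lower. The part of these markers in the members' rise was not tested. All 8 slow fibre markers were called lower in males, with group medians of their summed CPM of 2201 and 2235 in untreated females and 1416 and 1463 in untreated males. With them as a covariate 38 members were called higher and 2 lower, Cox6a1 stood at -0.346, Cox8a at -0.126 and Sdhb at 0.065. With the length slope as a covariate the median fell from 0.103 to 0.061, and 32 were called higher and 2 lower, Cox6a1 (-0.101) and Sdhb (-0.034), and Cox6a2 stood at -0.016. Without the 19 libraries against their labels 37 were called higher, and without the 35 marker-rich libraries 37 were.

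Genes of the same pathway outside the members were counted in the same fits. Over all genes, 10.1% were called higher for diet in untreated animals and 5.27% in treated animals. For metformin 11% of all genes were called lower, and 30.1% were called higher in males. Of 36 nuclear subunits of complex I, 18 were called higher and 0 lower on 44% fat in untreated animals, 17 lower and 0 higher with metformin, and 33 higher in males. Of the 6 mitochondrially encoded subunits of complexes III to V in the table, 4 rose with diet, among them mt-Co1 (0.104 ± 0.014) and mt-Cytb (0.106 ± 0.015), and 2 fell with metformin, mt-Co1 (-0.052 ± 0.014) and mt-Cytb (-0.038 ± 0.014). In treated animals mt-Co1 (0.089 ± 0.023) and mt-Cytb (0.086 ± 0.023) were called higher on 44% fat. Cytochrome c (Cycs, 0.054 ± 0.015) and cytochrome c1 (Cyc1, 0.064 ± 0.018), a complex III subunit whose symbol the rule does not take, rose with diet and fell with metformin (-0.057 ± 0.014 and -0.073 ± 0.016). Of 31 assembly factors of complexes II to V tested, 3 were called higher and 1 lower for diet (median 0.007). The part called higher for diet was near the share over all genes. For metformin 0 were called higher and 8 lower (median -0.024). In males 20 were called higher and 5 lower, and for diet in treated animals 1 higher and 1 lower. Atpif1, which inhibits ATP synthase, was not called in any of the 4 directed comparisons.

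Among 13 regulators of nuclear respiratory genes, 5 rose with diet in untreated animals, where 10.1% of all genes were called higher. They were Esrra (0.079 ± 0.021), an estrogen-related receptor, its relative Esrrg (0.079 ± 0.024), the coactivator Ppargc1b (0.119 ± 0.034), and the mitochondrial transcription factor Tfam (0.067 ± 0.011) and RNA polymerase Polrmt (0.080 ± 0.014). Ppargc1a, the coactivator PGC-1 alpha, had an estimate of -0.069 ± 0.045 and Nrf1 0.008 ± 0.016, neither called. With metformin Esrra (-0.075 ± 0.019) and Ppargc1a (-0.140 ± 0.043) fell and Pprc1 (0.057 ± 0.014) rose. In treated animals Tfam was called higher on 44% fat (0.070 ± 0.017, edgeR adjusted p = 0.00102), beside Ppargc1a at 0.063 ± 0.057 and Esrra at 0.029 ± 0.028, neither called.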

How the data were processed

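RNA of gastrocnemius muscle was sequenced by the authors as polyA libraries. The authors assigned reads to a transcriptome of the founder genomes by expectation maximisation (EMASE within GBRS) and deposited expected counts per gene as whole numbers; genes with few reads had been left out. They also deposited variance-stabilised values made with DESeq2, treated here as a score on a log2-like scale, since nothing in them says whether a batch regression was applied. GRCm38 stands in the submitters' processing notes. The deposited gene annotation was used for names. The table held 0 columns of samples outside the series.

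Groups came from the labels. Counts were scaled by TMM, filtered by filterByExpr over the groups and tested with edgeR 4.0.16 in R 4.3.3 (quasi-likelihood F test, Benjamini-Hochberg over all genes, threshold 0.05). Models held strain, sex, diet and identifier range, plus treatment over all libraries, and interactions were added to these. Within-strain differences came from linear models of log2 CPM on sex and diet, plus treatment for metformin, without identifier range. No model held age, which the labels of single samples do not give, whereas the paper used age as a covariate in its CC-RIX tests. Untreated groups can therefore mix the 6-month and 12-month cohorts in unknown parts. The present form of the edgeR fit was kept after both it and the older form, with estimated dispersions, had been run; they called the same numbers of members in every comparison run with both. Each library is one animal, and p-values set differences against the spread between animals. The paper states that CC-RIX animals were assigned to housing and diets by litter. The sample labels name no litter or cage, so no model held either. Littermates and cage mates were treated as independent, which the p-values for diet do not allow for. CPM came from the same factors. Transcript lengths were taken from GENCODE M21 and promoters from RefSeq (GRCm38.p6). Alternatives used limma 3.58.1 and DESeq2 1.42.0. High liver or adipocyte markers meant a summed log2 CPM more than 3 median absolute deviations above the median. The diet test was checked on simulated counts without strain, sex or identifier range effects and with the same spread for every gene. The simulated diet changes were larger than those estimated for the members, so the check does not cover changes of their size.

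The members, gene lists and tests were chosen with earlier results of these data known. Genes named with full values were, per complex and direction, the called member with the lowest adjusted p, the paired isoforms of complex IV, the complex II subunits, the 5 members with the largest strain share, and members called for an interaction; other members are given by counts or as examples chosen after their values were seen.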

Additional observations from a re-analysis of the deposited data

Results flagged for a closer look

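In 3 cases the response of a member differed between strains by the edgeR interaction test. Cox6a1 differed between strains in its diet response in untreated animals (adjusted p = 0.0383), with differences on the log2 CPM scale from -0.318 to 0.468. Its adjusted p ran from 0.0383 to 0.472 over 9 settings and was under the threshold in 3, and it was 0.227 without the 35 libraries rich in liver or adipocyte markers. Sdha differed in its metformin difference (edgeR adjusted p = 0.0166), from -0.139 to 0.081 over strains. Its adjusted p ran from 0.00695 to 0.125, was under the threshold in 7 of 9 settings, and was 0.0509 without the marker-rich libraries. Atp5a1 differed in the same test (edgeR adjusted p = 0.036), from -0.153 to 0.067 over strains. Its adjusted p ran from 0.0175 to 0.222, was under the threshold in 4 of 9 settings, and was 0.125 without the marker-rich libraries. For the 2 metformin results, age moves with treatment and cannot be told apart from it.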

How the results depend on the processing

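No paired analysis was possible because every library carries the same replicate number in its label. Of the alternatives for counts of called members, 82 stayed within 1.5 times the count reported, and the rest follow; the cause of these changes was not tested. The upper identifier range alone, with fewer samples, gave 0 members for diet, 11 for sex, 8 for strain, 0 for metformin and 0 for diet in treated animals. The lower range alone gave 0 for diet in treated animals, 0 for diet by strain and 0 for metformin by strain. For diet by strain and metformin by strain, limma voom gave 0 and 1, limma on the transformed values 0 and 1, and leaving out the marker-rich libraries 0 and 0. The slow fibre covariate gave 0 for diet in treated animals, 0 for diet by strain and 4 for metformin by strain. Genes of 5 CPM or more alone gave 2 for diet in treated animals. The length slope, chosen after the data were seen, gave 28 for diet in treated animals, 0 for diet by strain and 7 for metformin by strain.

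Of the values of single members, 865 kept direction and call, 29 lost the call, 16 gained it and 29 changed sign. For diet, Cox6a1 was -0.00126 with genes of 5 CPM or more, -0.00215 on the transformed values and -0.0046 with the length slope; Cox8b was -0.00217 with voom, -0.00306 on the transformed values, -0.029 in the upper range, -0.00535 without the libraries against their labels and -0.000254 with the slope. In the upper range Cox6a2 was 0.0026 and Sdha -0.02. For sex, Cox6a1 was 0.0571 and Sdhb 0.0183 in the upper range, Cox6a2 -0.0155 with the slope, and Cox8a -0.126 and Sdhb 0.0654 with the slow fibre covariate. For metformin, Cox4i2 was 0.0171 in the lower range and 0.00367 with the slope, and in the upper range Sdha was 0.0066, Sdhc 0.00182 and Sdhd 0.00456. For diet in treated animals, the upper range gave 0.0957 for Cox4i2, -0.0286 for Cox7a1, -0.00148 for Cox7a2l and -0.0164 for Sdhd, the lower range 0.00822 for Cox7a2, the slow fibre covariate -0.00182 for Cox7a1, and the slope 0.00901 for Cox6a2, 0.0138 for Cox7a2 and 0.00599 for Cox8b.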
